A study of Mus musculus with 6 samples.

Results

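The enzymes that make sterols and fatty acids, together with the SREBP factors that control their transcription, were followed as a set of 34 genes in IL-4-treated mouse macrophages. The genes were taken by symbol, from a list of pathway genes, out of 54532 measured genes. They comprised 18 genes of sterol synthesis, 10 of fatty acid synthesis and desaturation, 5 of SREBP control and the sterol carrier gene Stard4. All 34 had a mean of at least 1 FPKM (fragments scaled by exon length and by library depth) over the libraries, the level required for testing. RNA came from immortalised bone marrow-derived macrophages, a growing line obtained by infecting cultured marrow macrophages with retroviruses that carry v-raf and v-myc. The 6 libraries comprised 3 from 4-1BBL KO cells, which are labelled as lacking the TNF family ligand 4-1BBL, and 3 from WT cells. Both groups carried the immortalising viruses and both were exposed to IL-4 (10 ng/ml, 24 hours), and no untreated cells were analysed here, which leaves the response to IL-4 itself unmeasured. The labels do not say whether a group is 1 clone, or whether its 3 libraries came from separate cultures or animals. The p-values therefore set differences against library-to-library spread alone, possibly technical. The genotype cannot be told apart from other differences between the cells of the groups, which may have been immortalised separately. By its title the study concerns the bearing of 4-1BBL on anti-inflammatory responses and on the metabolism of macrophages.

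Cells build cholesterol from acetyl-CoA through mevalonate, squalene and a run of late sterol steps, and build fatty acids from the same acetyl-CoA through malonyl-CoA and palmitate, which is then elongated and desaturated. SREBP proteins are membrane-bound transcription factors that SCAP escorts from the endoplasmic reticulum to the Golgi for cleavage when sterols are low, while INSIG proteins hold SCAP back when sterols are high. SREBP-2 acts mainly on sterol genes and SREBP-1 mainly on fatty acid genes, whereas the oxysterol receptor LXR also drives Srebf1, Scd1 and other fatty acid genes in macrophages.

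The depth recovered from the FPKM steps was 19.1 to 26.4 M (mega) assigned fragments per KO-labelled library and 20.7 to 22.3 M per WT library. Tnfsf9, which encodes 4-1BBL, had 10.7, 10.7 and 11.4 FPKM in KO-labelled replicates 1 to 3, against 14.6, 10.4 and 12.05 FPKM in WT replicates 1 to 3. These levels overlapped between the groups (exact two-sided permutation p = 0.4, where 0.1 is the smallest p of this design, and limma adjusted p = 0.273). An antisense gene, Gm11110, overlaps 14.9% of its exon length. The removed part of Tnfsf9 is not named in the labels, so these levels are no test of the deletion, and the cells are described as KO-labelled. All 9 macrophage markers checked exceeded a mean of 1 FPKM, with a summed level of 1345 to 1390.3 FPKM in KO-labelled libraries and 2293 to 2344 FPKM in WT libraries. At a limma adjusted p below 0.05, 4 of them fell and 3 rose, where 30.2% of all tested genes fell and 30.6% rose. Lyz2 made up the largest part of that sum, at 484 and 1207 FPKM in KO-labelled and WT cells, and single markers moved far in both directions. Adgre1 was at 268 and 11.8 FPKM, Mertk at 4.24 and 0.007197 FPKM and Cd14 at 45.8 and 292 FPKM in KO-labelled and WT cells, and the part of these differences in the results was not tested. Of markers of other cell types, those of osteoclasts summed to 82.5 to 85.6 FPKM in KO-labelled and 127 to 138 FPKM in WT libraries, where Acp5 was at 2.79 and 50.8 FPKM and Ctsk, the largest, at 80.5 and 69.5 FPKM in KO-labelled and WT cells, and their part in the results was not tested. The adipocyte markers Plin1 and Lep were at 0 in all libraries, the adipocyte list summed to at most 4.49 FPKM, and fibroblast, lymphocyte, mast cell, dendritic cell and neutrophil lists summed to at most 1.26 FPKM. In bulk RNA, fewer cells of a type and less RNA per cell cannot be told apart.

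Most sterol and fatty acid synthesis genes were lower in KO-labelled cells, and 4 of the 5 genes of SREBP control did not pass the test. The synthesis genes and the control genes were not tested against each other. Of the 34 genes, 17 fell, 5 rose and 12 did not pass an adjusted p of 0.05, in limma on log2(FPKM + 1) with Benjamini-Hochberg adjustment over all 10843 tested genes. Every adjusted p below is from this test unless another setting is named. Across all tested genes 60.8% passed, 30.2% lower and 30.6% higher, so the share of members that passed was close to the background and the share that fell was above it. The median log2 fold change was -0.20 over the 34 genes and 0.00549 over all tested genes. After rescaling each library to TPM, 14 members fell and 9 rose, where 22.5% of all tested genes fell and 34.4% rose, and that scaling raised the median of all genes to 0.11. The members' median on that scale was -0.11, and it stayed below that of all genes by a similar amount.

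**Figure D1:**
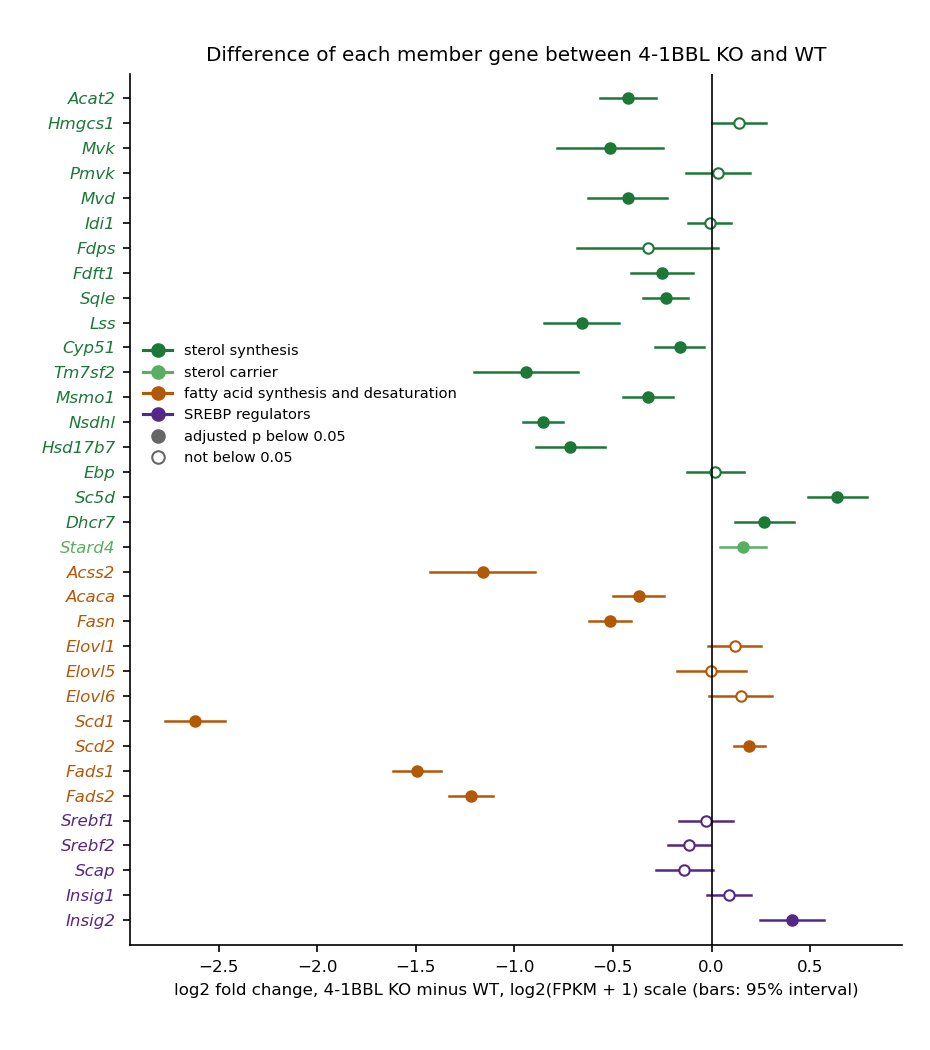
Log2 fold change of each of the 34 genes, 4-1BBL KO minus WT on the log2(FPKM + 1) scale, with 95% intervals, in pathway order from top to bottom, filled where the adjusted p was below 0.05. The desaturase genes Scd1 (-2.62), Fads1 (-1.49) and Fads2 (-1.22) lie farthest to the left, and the 5 SREBP regulators lie between -0.14 and 0.41.

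Sterol synthesis had 11 of 18 genes lower, 2 higher and 5 not passing, with a median log2 fold change of -0.29. Fatty acid synthesis and desaturation had 6 of 10 lower, 1 higher and 3 not passing, with a median of -0.44. For both branches the background was 30.2% of all tested genes lower and 30.6% higher. Decreases of 2-fold or more, measured on log2(FPKM + 1), were found for 4 members, all in the fatty acid branch, where 6.28% of all tested genes fell by as much. No member rose by 2-fold, where 7.23% of all tested genes did. That scale understates weak genes, and by the ratio of mean FPKM the sterol gene Tm7sf2 also fell by more than 2-fold (3.21-fold), as described with its level. The fatty acid branch held both the largest decrease of the set, that of Scd1, and 4 genes with positive or near-zero values. The difference between the branches was not tested.

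**Figure D2:**
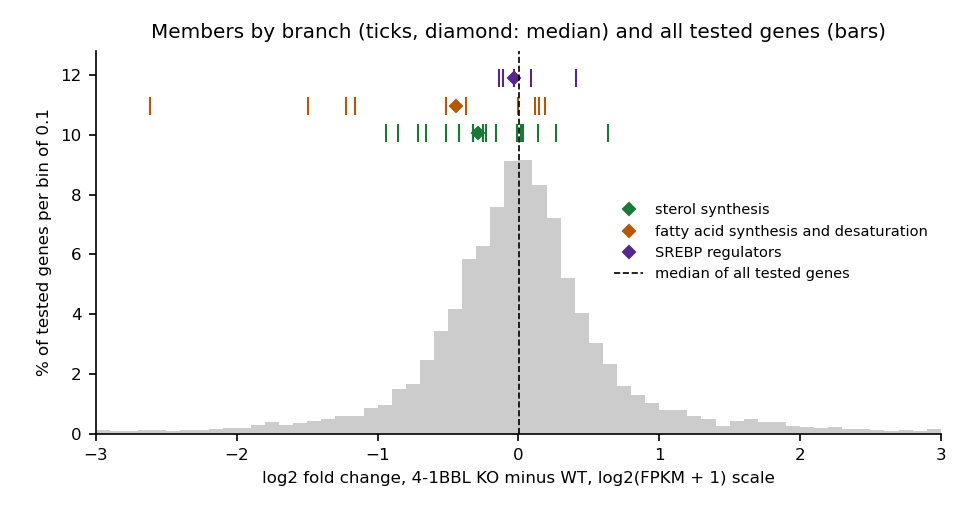
Distribution of log2 fold changes, 4-1BBL KO minus WT, of all tested genes (bars, percent of genes per bin of 0.1) with the members of each branch as ticks and the branch median as a diamond. The medians of both synthesis branches lie left of the dashed median of all tested genes and that of the regulators lies beside it, and 210 tested genes lie outside the plotted range.

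The mevalonate steps turn acetyl-CoA into the isoprenoid farnesyl pyrophosphate. Of their 7 genes, 3 were lower (42.9%, against 30.2% of all tested genes) and 4 did not pass. The gene of the mevalonate kinase, Mvk, had 7.31, 9.36 and 10.3 FPKM in KO-labelled replicates 1 to 3, against 13.1, 12.5 and 13.8 FPKM in WT replicates 1 to 3. The KO-labelled libraries all lay below the WT libraries but were spread over a wider range, and replicate 1 was the lowest. This was a 1.47-fold decrease of the mean, with a log2 fold change of -0.51 ± 0.11 (SE) and an adjusted p of 0.006397. Acat2, whose thiolase opens the pathway by joining acetyl-CoA units, averaged 31.2 ± 0.958 FPKM in KO-labelled cells, against 42.2 ± 2.98 FPKM in WT cells (SD, n = 3 each), with a log2 fold change of -0.42 ± 0.06 (SE) and an adjusted p of 7.88e-04. Mvd, which makes isopentenyl pyrophosphate, averaged 35.6 ± 3.9 FPKM in KO-labelled cells, against 47.95 ± 2.43 FPKM in WT cells (SD, n = 3 each), with an adjusted p of 0.00408.

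Hmgcs1, the cytosolic HMG-CoA synthase and a classical SREBP target, had 29.6, 32.8 and 28.9 FPKM in KO-labelled replicates 1 to 3, against 27.3, 28.3 and 26.99 FPKM in WT replicates 1 to 3. All 3 KO-labelled values exceeded all WT values, yet the difference did not pass, with a log2 fold change of 0.14, with a 95% interval from 0.0018 to 0.28 and an adjusted p of 0.07404. Its adjusted p was 0.0425 without KO-labelled replicate 3, 0.0132 after rescaling to TPM and 0.0483 with limma-voom on the recovered fragments. Pmvk, the phosphomevalonate kinase, was at 15.3 and 14.9 FPKM in KO-labelled and WT cells with an adjusted p of 0.715. Idi1, the isopentenyl isomerase, was at 26.4 and 26.6 FPKM in KO-labelled and WT cells, and its 95% interval ran from -0.12 to 0.099 on the log2 scale. A processed pseudogene, Gm13502, has a transcript 100% identical to Idi1 over 684 bases, so the division of fragments between them is uncertain.

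Fdps, the farnesyl pyrophosphate synthase gene, was the weakest of the sterol genes in WT cells, with 0.946, 1.28 and 0.571 FPKM in KO-labelled replicates 1 to 3, against 1.28, 1.48 and 1.42 FPKM in WT replicates 1 to 3. The groups overlapped and the adjusted p was 0.103, or 0.0376 without KO-labelled replicate 2. This level is uncertain, because 3 processed pseudogenes hold near-identical copies of the Fdps transcript and fragments may have been assigned to them. In addition, Gm43738, listed at 0 FPKM, overlaps 26.7% of the Fdps exon length on the same strand. The effect of that overlap on the count was not tested. The copy on chromosome 10, Gm3571, is 98.9% identical over 1062 bases and was counted at 12.3, 10.2 and 14.5 FPKM in KO-labelled replicates 1 to 3, against 21.9, 24.6 and 25.8 FPKM in WT replicates 1 to 3. All KO-labelled values of the copy lay below all WT values, with a log2 fold change of -0.92 ± 0.12 (SE) and an adjusted p of 5.78e-04. In FPKM, which divides by exon length, the copy was thus many times above Fdps itself in every library. Fdps has 4208 exon bases, and the fragments of the copy were not set against its own. Gm3571 was singled out after its values had been seen.

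All 3 genes of the squalene steps fell, where 30.2% of all tested genes did. Lss, which folds squalene epoxide into lanosterol, lies on chromosome 10 at 76531588 to 76557138 in mm10 and had 6.86, 7.84 and 6.65 FPKM in KO-labelled replicates 1 to 3, against 12.8, 11.1 and 11.6 FPKM in WT replicates 1 to 3. The groups were well apart, and the mean fell 1.66-fold, with a log2 fold change of -0.66 ± 0.08 (SE) and an adjusted p of 3.79e-04. Sqle, the squalene epoxidase and a rate-limiting enzyme of the pathway, averaged 35.5 ± 1.46 FPKM in KO-labelled cells, against 41.9 ± 1.34 FPKM in WT cells (SD, n = 3 each), a smaller change of -0.23 with an adjusted p of 0.00518. Fdft1, which makes squalene, had a log2 fold change of -0.25 (adjusted p = 0.0147). On the opposite strand, Ctsb overlaps 18.3% of the Fdft1 exon length, so fragments of the strongly expressed Ctsb may be counted in it. After rescaling to TPM both changes kept their direction, with adjusted p of 0.0635 for Sqle and 0.107 for Fdft1.

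The late sterol steps, from lanosterol to cholesterol, were split, with 5 of 8 genes lower, 2 higher and 1 not passing. These shares, 62.5% lower and 25% higher, compare with 30.2% and 30.6% of all tested genes. Nsdhl, a dehydrogenase that helps strip methyl groups from the sterol ring, lies on chromosome X at 72918557 to 72958514 and had 13.9, 14.2 and 13.8 FPKM in KO-labelled replicates 1 to 3, against 26.5, 25.9 and 25.8 FPKM in WT replicates 1 to 3. Its KO-labelled replicates were the tightest of the changed sterol genes and all lay far under the WT values, a 1.87-fold decrease with a log2 fold change of -0.85 ± 0.043 (SE) and an adjusted p of 4.06e-06. Hsd17b7, which acts in the same demethylation complex as a ketosteroid reductase, had 5.92, 5.11 and 6.21 FPKM in KO-labelled replicates 1 to 3, against 10.3, 10.1 and 9.79 FPKM in WT replicates 1 to 3. The mean fell 1.75-fold, with a log2 fold change of -0.72 ± 0.074 (SE) and an adjusted p of 1.65e-04. Tm7sf2, a sterol reductase of the nuclear and endoplasmic membranes, was weakly expressed, with 0.678, 0.872 and 0.579 FPKM in KO-labelled replicates 1 to 3, against 2.37, 2.01 and 2.45 FPKM in WT replicates 1 to 3. Its 3.21-fold ratio of means was the largest of the sterol branch, with a log2 fold change of -0.94 ± 0.11 (SE) and an adjusted p of 3.24e-04, and with a pseudocount of 0.1 FPKM the log2 fold change was -1.56. Its FPKM did not step in whole fragments, so the roughly 204 fragments in the KO-labelled and 646 in the WT libraries are estimates. On the same strand, Vps51, at a mean of 0.658 FPKM, overlaps 12.1% of the Tm7sf2 exon length. The effect of that overlap on the count was not tested.

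Msmo1, the methyl sterol oxidase that precedes Nsdhl, averaged 20.1 ± 0.707 FPKM in KO-labelled cells, against 25.4 ± 1.3 FPKM in WT cells (SD, n = 3 each), with an adjusted p of 0.00186. Cyp51, the lanosterol demethylase, averaged 27.8 ± 1.58 FPKM in KO-labelled cells, against 31.2 ± 0.208 FPKM in WT cells (SD, n = 3 each), with a log2 fold change of -0.16 and an adjusted p of 0.0307. The call was lost in 5 of the 6 fits that left out 1 library. Its adjusted p was 0.0675 and 0.0654 without KO-labelled replicate 1 or 2, 0.0698, 0.0818 and 0.0813 without WT replicate 1, 2 or 3, and 0.344 after rescaling to TPM. Ebp, the sterol isomerase, was at 15.7 and 15.5 FPKM in KO-labelled and WT cells (adjusted p = 0.795).

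The last desaturation and reduction of the pathway ran the other way. Sc5d, the desaturase that acts on lathosterol, lies on chromosome 9 at 42251595 to 42264256 and had 17.1, 15.8 and 17.7 FPKM in KO-labelled replicates 1 to 3, against 10.04, 11.1 and 10.3 FPKM in WT replicates 1 to 3. Every KO-labelled library exceeded every WT library, a 1.61-fold increase with a log2 fold change of 0.64 ± 0.063 (SE) and an adjusted p of 1.27e-04. Dhcr7, the reductase that yields cholesterol from its immediate precursor, averaged 11.2 ± 0.411 FPKM in KO-labelled cells, against 9.13 ± 0.618 FPKM in WT cells (SD, n = 3 each), with a log2 fold change of 0.27 ± 0.064 (SE) and an adjusted p of 0.009196. Stard4, which carries cholesterol through the cytosol and is itself an SREBP-2 target, had 17.8, 17.1 and 17.9 FPKM in KO-labelled replicates 1 to 3, against 15.4, 15.2 and 16.4 FPKM in WT replicates 1 to 3. The groups did not overlap and the increase was 1.12-fold, with an adjusted p of 0.0271. Its adjusted p was 0.0647 and 0.0584 without KO-labelled replicate 1 or 3, and 0.0804 and 0.0872 without WT replicate 1 or 2.

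Summed over the 18 genes, the sterol branch held 314, 323 and 322 FPKM in KO-labelled replicates 1 to 3, against 377, 377 and 377 FPKM in WT replicates 1 to 3. The sum in KO-labelled cells was 0.848 of that in WT cells, or 0.906 in TPM, and the groups did not overlap on either scale. Mvd, Nsdhl and Acat2 gave the largest decreases in FPKM, with differences of means of -12.4, -12.1 and -11.04, while Sc5d gave the largest increase, of 6.39.

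**Figure D3:**
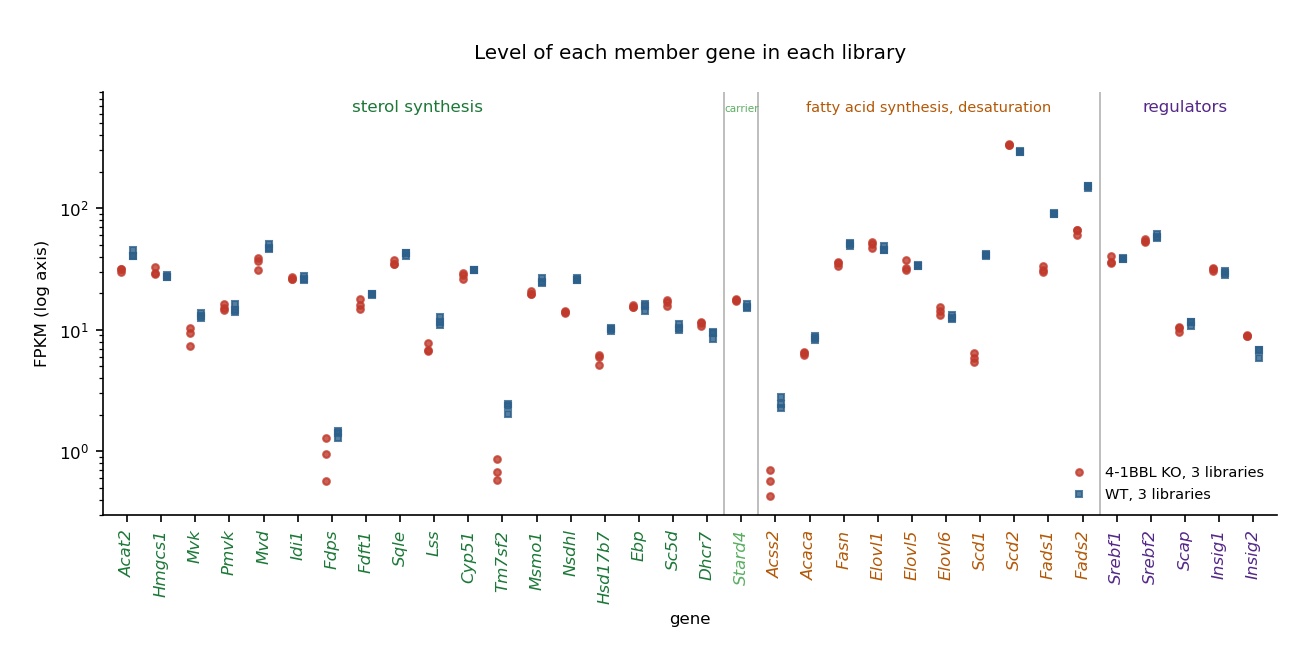
FPKM of each of the 34 genes in each library, on a log axis, with 4-1BBL KO as circles to the left and WT as squares to the right, grouped by branch. Scd2 is the highest gene in both groups at 334 and 292 FPKM, Fdps, Tm7sf2 and Acss2 are the lowest, and the widest gap between the groups is at Scd1.

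Desaturases, the enzymes that place double bonds in fatty acids, had 3 of 4 genes lower and 1 higher. By comparison, 30.2% of all tested genes were lower and 30.6% higher. Scd1, a stearoyl-CoA desaturase that makes oleate and palmitoleate, lies on chromosome 19 at 44394455 to 44407879 and had 5.81, 6.47 and 5.45 FPKM in KO-labelled replicates 1 to 3, against 41.96, 41.6 and 40.5 FPKM in WT replicates 1 to 3. The KO-labelled libraries were far below the WT libraries, a 6.999-fold decrease with a log2 fold change of -2.62 ± 0.064 (SE) and an adjusted p of 1.46e-07. As for Tm7sf2, the FPKM of Scd1 did not step in whole fragments, so Scd1 had no limma-voom value. Its paralog Scd2 is separated from it by 87.6 kb on the same chromosome, makes the same products, and had 337, 332 and 332 FPKM in KO-labelled replicates 1 to 3, against 294, 293 and 290.4 FPKM in WT replicates 1 to 3. Here every KO-labelled value exceeded every WT value, a 1.14-fold increase with a log2 fold change of 0.19 ± 0.033 (SE) and an adjusted p of 0.00217.

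The ratio of Scd1 to Scd2 was 0.0172, 0.0195 and 0.0164 in KO-labelled replicates 1 to 3, against 0.143, 0.142 and 0.139 in WT replicates 1 to 3. Scd2 was therefore the main stearoyl-CoA desaturase transcript in both groups. The sum of the 2 genes was 339.7 ± 3.11 FPKM in KO-labelled cells and 334 ± 2.598 FPKM in WT cells (SD, n = 3 each), slightly higher in all 3 KO-labelled libraries than in any WT library. The sum was not tested. In FPKM, the increase of Scd2 (41.4) was of similar size to the decrease of Scd1 (-35.4). This did not hold in TPM, where the increase of Scd2 was clearly the larger. Mean TPM in KO-labelled and WT cells was 1149.8 and 943.4 for Scd2, and 20.3 and 133.4 for Scd1. A stretch of 623 bases in a short Scd1 transcript is 95.5% identical to Scd2, so some fragments of these genes could be exchanged. The other mouse paralogs, Scd3 and Scd4, averaged at most 0.331 FPKM in either group and were not tested.

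Fads1 and Fads2, the desaturases that act in turn in the synthesis of arachidonate and other polyunsaturated fatty acids, fell together. They lie on chromosome 19 with 81.1 kb between them and are read in opposite directions. Fads1, at 10182888 to 10196877, had 31.2, 29.8 and 33.5 FPKM in KO-labelled replicates 1 to 3, against 90.1, 89.2 and 91.8 FPKM in WT replicates 1 to 3. Fads2, at 10062765 to 10101746, had 65.7, 66.3 and 60.8 FPKM in KO-labelled replicates 1 to 3, against 153, 147 and 153 FPKM in WT replicates 1 to 3. In both genes the groups were widely separated, and the means fell 2.87-fold for Fads1 and 2.35-fold for Fads2. The limma values were a log2 fold change of -1.49 ± 0.052 (SE) and an adjusted p of 7.35e-07 for Fads1, and a log2 fold change of -1.22 ± 0.047 (SE) and an adjusted p of 1.20e-06 for Fads2. Of all members, Fads2 lost the most in absolute FPKM, with a difference of means of -86.8.

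**Figure D4:**
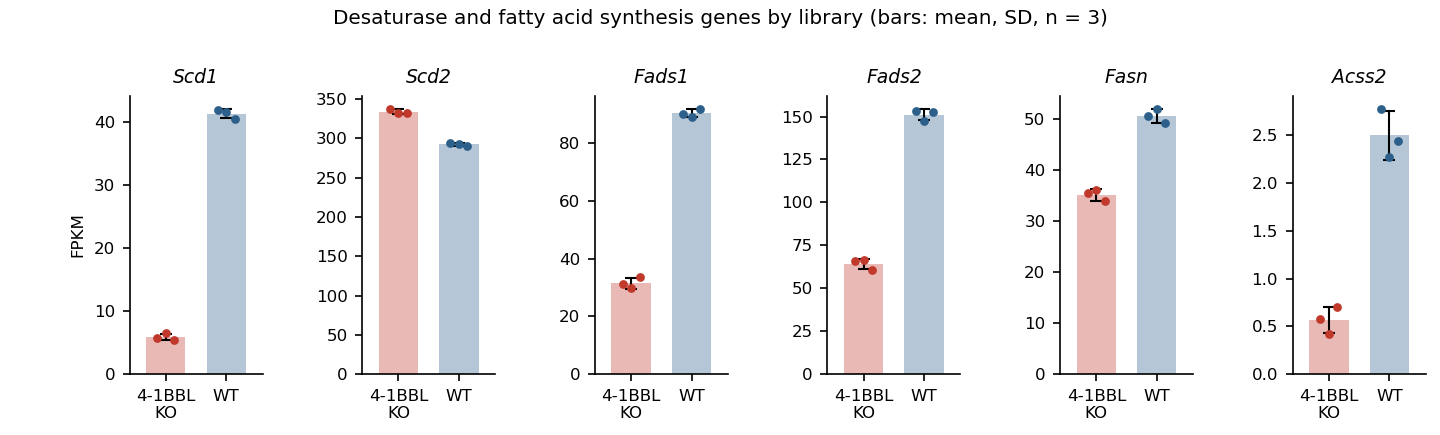
FPKM of 6 fatty acid genes by library (points), with means and SD (bars, n = 3), 4-1BBL KO left and WT right, each gene on its own axis from 0. Scd1, Fads1, Fads2, Fasn and Acss2 are lower in all 3 KO libraries than in any WT library, and Scd2 is higher in all 3.

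The 3 genes that supply and build the carbon chain fell as well, where 30.2% of all tested genes fell. Fasn, the fatty acid synthase that makes palmitate, lies on chromosome 11 at 120805846 to 120824547 and had 35.5, 36.1 and 33.8 FPKM in KO-labelled replicates 1 to 3, against 50.5, 51.9 and 49.2 FPKM in WT replicates 1 to 3. The replicates were close together and the groups apart, a 1.44-fold decrease with a log2 fold change of -0.51 ± 0.045 (SE) and an adjusted p of 6.91e-05. Acss2, which makes acetyl-CoA from acetate in the cytosol and nucleus, lies on chromosome 2 at 155517948 to 155585724 and had 0.574, 0.425 and 0.704 FPKM in KO-labelled replicates 1 to 3, against 2.78, 2.28 and 2.44 FPKM in WT replicates 1 to 3. It was scarce in KO-labelled cells, 4.402-fold lower from 376 fragments against 1636 in WT cells, with a log2 fold change of -1.16 ± 0.11 (SE) and an adjusted p of 1.15e-04. On a scale with a pseudocount of 0.1 FPKM its log2 fold change was -1.98. Acaca, the acetyl-CoA carboxylase that commits carbon to fatty acids, averaged 6.398 ± 0.159 FPKM in KO-labelled cells, against 8.56 ± 0.324 FPKM in WT cells (SD, n = 3 each), with an adjusted p of 0.00101. Gm5182, a processed pseudogene on chromosome 12, copies 6118 bases of Acaca at 99.2% identity and was counted at 2.59 and 3.84 FPKM in KO-labelled and WT cells, so the split of fragments between them is uncertain.

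None of the 3 elongase genes passed, where 60.8% of all tested genes did. Elovl6, which extends palmitate to stearate, was at 14.2 ± 1.096 FPKM in KO-labelled cells, against 12.7 ± 0.547 FPKM in WT cells (SD, n = 3 each), with a log2 fold change of 0.15, with a 95% interval from -0.012 to 0.31 and an adjusted p of 0.0968. Without KO-labelled replicate 1 its adjusted p was 0.0383. Elovl1, which extends saturated very long chains, was at 50.5 and 46.4 FPKM in KO-labelled and WT cells, with an adjusted p of 0.11, or 0.0303 without KO-labelled replicate 3. After rescaling to TPM, Elovl6 and Elovl1 were higher in KO-labelled cells, with adjusted p of 0.0363 and 0.0177. Elovl5, which extends the polyunsaturated products of Fads2, was at 33.8 and 33.7 FPKM in KO-labelled and WT cells, and its 95% interval from -0.17 to 0.17 did not reach the changes of the Fads genes.

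The branch summed to 578, 577 and 573 FPKM in KO-labelled replicates 1 to 3, against 738, 726 and 726 FPKM in WT replicates 1 to 3. This was 0.789 of the WT sum, or 0.843 in TPM, without overlap on either scale. Scd2 made up 57.9% of the sum in KO-labelled cells and 40.1% in WT cells, whereas the share of Fads1 and Fads2 was 5.47% and 11.2% in KO-labelled cells, against 12.4% and 20.7% in WT cells.

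Of 5 genes that control SREBP activity, 1 rose (20%, against 30.6% of all tested genes), none fell (against 30.2%) and 4 did not pass. At an unadjusted p under 0.05, 1 of them, Srebf2, was lower in limma, and with limma-voom the same gene was called lower. Srebf1, which encodes SREBP-1, had 40.6, 36.3 and 35.6 FPKM in KO-labelled replicates 1 to 3, against 37.9, 38.7 and 38.03 FPKM in WT replicates 1 to 3. The groups overlapped, with a log2 fold change of -0.028, with a 95% interval from -0.16 to 0.11 and an adjusted p of 0.701. Srebf2, which encodes SREBP-2, had 56.1, 54.1 and 52.7 FPKM in KO-labelled replicates 1 to 3, against 58.1, 60.9 and 57.3 FPKM in WT replicates 1 to 3. Its KO-labelled values all lay below the WT values by a narrow margin, with a log2 fold change of -0.11, with a 95% interval from -0.22 to -0.0056 and an adjusted p of 0.0657. The adjusted p of Srebf2 was 0.0316 with limma-voom on the recovered fragments and 0.707 after rescaling to TPM. Transcript level does not report the cleaved, active form of either protein.

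Scap, the sterol-sensing escort of SREBP, had 10.6, 10.4 and 9.51 FPKM in KO-labelled replicates 1 to 3, against 11.6, 10.8 and 11.5 FPKM in WT replicates 1 to 3. The KO-labelled values again lay just under the WT values, with an adjusted p of 0.0888. Insig1, which retains SCAP in the endoplasmic reticulum and is itself induced by SREBP, had 31.5, 30.2 and 32.1 FPKM in KO-labelled replicates 1 to 3, against 28.2, 30.3 and 29.6 FPKM in WT replicates 1 to 3. The libraries of the groups overlapped, with a log2 fold change of 0.088, with a 95% interval from -0.025 to 0.20 and an adjusted p of 0.152. After rescaling to TPM its adjusted p was 0.0148, with a log2 fold change of 0.18. Insig2, the second retention gene, had 8.83, 8.93 and 9.04 FPKM in KO-labelled replicates 1 to 3, against 6.79, 6.86 and 5.85 FPKM in WT replicates 1 to 3. It rose in every KO-labelled library, 1.37-fold, with a log2 fold change of 0.41 ± 0.069 (SE) and an adjusted p of 0.001896.

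The ratio of Insig1 to Insig2 was 3.57, 3.38 and 3.55 in KO-labelled replicates 1 to 3, against 4.16, 4.41 and 5.07 in WT replicates 1 to 3. Insig1 remained the more abundant of the pair in both groups. The ratio of Srebf1 to Srebf2 lay between 0.672 and 0.724 in KO-labelled libraries and between 0.635 and 0.664 in WT libraries. Over the 5 regulators the sum was 142 ± 4.81 FPKM in KO-labelled cells and 144 ± 2.91 FPKM in WT cells (SD, n = 3 each), a ratio of 0.987, which became 1.05 in TPM and so changed side with the scaling.

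**Figure D5:**
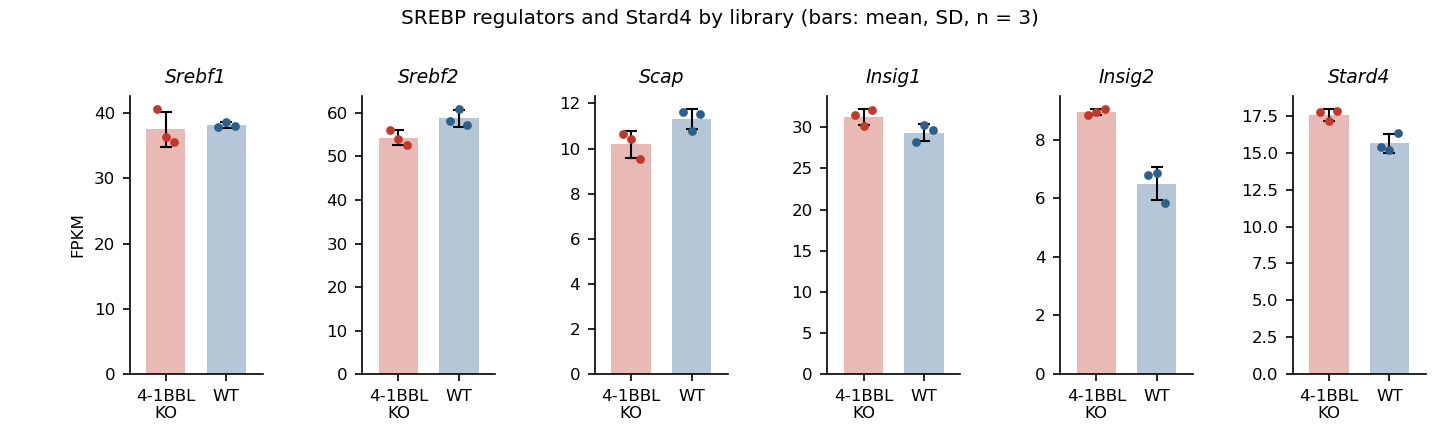
FPKM of the 5 SREBP regulator genes and of Stard4 by library (points), with means and SD (bars, n = 3), 4-1BBL KO left and WT right, each gene on its own axis from 0. Insig2 and Stard4 are higher in all 3 KO libraries, and the KO and WT libraries of Srebf1 and Insig1 overlap.

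Within groups the members were measured tightly. The coefficient of variation over 3 libraries had a median of 5.61% in KO-labelled and 3.86% in WT libraries over the 34 genes. It ranged from 0.957% (Scd2) to 38.01% (Fdps) in KO-labelled libraries and from 0.631% (Scd2) to 10.3% (Tm7sf2) in WT libraries. The groups did not overlap for 25 of the 34 members, 19 of them lower in KO-labelled cells, where 67.4% of all tested genes did not overlap and 33.4% lay lower without overlap.

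Promoter sequence was available for 27 of the 34 genes from RefSeq (GRCm38.p6, the build of mm10). The 250 bases before each RefSeq start were searched on both strands for 4 motifs. These were a sterol regulatory element, TCACNCCAC, which SREBP binds, the NF-Y box CCAAT, which often accompanies it, the E-box CACGTG and the GC box GGGCGG. NF-Y boxes were found in 22 of the 27 genes (81.5%), against 41.03% of the 7960 tested genes with a promoter in the table and 37.5% of all 27025 genes in it. At least 2 such boxes were present in 12 of the 27, against 16.1% of tested genes. By branch the box was found in 14 of 15 sterol synthesis genes, 4 of 7 fatty acid genes and 4 of 5 regulators. It did not separate members by direction, being present in 10 of 13 genes that fell, 3 of 3 that rose and 9 of 11 that did not pass. No sequence was available for Scd1, Scd2, Fads1, Sqle, Fdps, Fdft1 and Stard4. Scd1 and Fads1, with the largest decreases on the log2 scale, are thus absent from these counts. E-boxes were found in 6 members, against 10.4% of tested genes, and GC boxes in 22, against 65.6%. The exact element TCACNCCAC was found in 1 member, Hmgcs1, and in 1.26% of tested genes. A match is a description of the letters and not evidence of binding.

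The windows shown are those of 3 fatty acid genes and 2 sterol genes that fell, of Sc5d, which rose, of Insig1, which did not pass, and of Hmgcs1, which was singled out after the search because it alone held the sterol element. Each is given 5′ to 3′ on the gene's own strand, ending at the base before the RefSeq start. This start can differ from that of the GENCODE M21 annotation, which gave the gene coordinates above. The windows of Acss2, Lss and Insig1 reach past the GENCODE start into the gene, and that of Fads2 lies almost wholly inside it. Capitals mark the NF-Y box, the sterol element and the E-box on either strand, so that an NF-Y box on the other strand reads ATTGG. In Fasn, a pair of overlapping NF-Y boxes on opposite strands forms a single run of capitals. Fads2 holds none of the marked motifs in this window, Acss2 and Lss hold 1 NF-Y box, and Nsdhl holds 2.
Fads2, chr19:10101504-10101753, minus strand: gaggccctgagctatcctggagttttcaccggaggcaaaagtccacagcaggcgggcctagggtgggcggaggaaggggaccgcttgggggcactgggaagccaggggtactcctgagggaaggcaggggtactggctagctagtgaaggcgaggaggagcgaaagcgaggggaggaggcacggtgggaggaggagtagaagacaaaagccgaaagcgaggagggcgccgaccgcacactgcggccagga
Acss2, chr2:155517793-155518042, plus strand: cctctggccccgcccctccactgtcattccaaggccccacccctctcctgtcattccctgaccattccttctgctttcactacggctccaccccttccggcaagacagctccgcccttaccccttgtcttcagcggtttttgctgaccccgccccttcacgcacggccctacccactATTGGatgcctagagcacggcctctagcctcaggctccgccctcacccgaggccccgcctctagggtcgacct
Fasn, chr11:120824548-120824797, minus strand: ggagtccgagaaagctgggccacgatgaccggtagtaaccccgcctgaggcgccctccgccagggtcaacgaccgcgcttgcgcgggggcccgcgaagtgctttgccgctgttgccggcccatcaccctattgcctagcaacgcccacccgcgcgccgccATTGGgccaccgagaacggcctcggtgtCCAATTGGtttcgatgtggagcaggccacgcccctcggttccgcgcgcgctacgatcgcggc
Nsdhl, chrX:72918271-72918520, plus strand: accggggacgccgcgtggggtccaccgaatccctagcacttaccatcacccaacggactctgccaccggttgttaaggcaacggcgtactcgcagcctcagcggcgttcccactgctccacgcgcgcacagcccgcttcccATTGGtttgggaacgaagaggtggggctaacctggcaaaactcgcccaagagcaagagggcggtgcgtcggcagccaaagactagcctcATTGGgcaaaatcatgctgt
Lss, chr10:76531355-76531604, plus strand: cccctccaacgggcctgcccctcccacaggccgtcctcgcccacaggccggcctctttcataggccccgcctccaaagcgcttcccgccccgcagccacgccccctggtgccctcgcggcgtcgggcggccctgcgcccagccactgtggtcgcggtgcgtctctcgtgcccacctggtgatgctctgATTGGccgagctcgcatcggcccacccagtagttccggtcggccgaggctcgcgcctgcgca
Sc5d, chr9:42264301-42264550, minus strand: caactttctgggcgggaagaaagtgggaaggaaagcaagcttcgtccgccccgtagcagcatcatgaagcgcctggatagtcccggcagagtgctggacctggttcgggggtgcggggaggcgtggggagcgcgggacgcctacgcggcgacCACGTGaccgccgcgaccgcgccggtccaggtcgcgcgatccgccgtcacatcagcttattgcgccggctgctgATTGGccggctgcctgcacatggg
Insig1, chr5:28071162-28071411, plus strand: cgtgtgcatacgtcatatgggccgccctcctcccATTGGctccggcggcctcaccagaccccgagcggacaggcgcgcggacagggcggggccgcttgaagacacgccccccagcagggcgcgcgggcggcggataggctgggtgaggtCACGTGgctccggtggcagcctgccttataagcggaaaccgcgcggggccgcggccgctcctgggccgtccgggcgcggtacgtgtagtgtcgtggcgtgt
Hmgcs1, chr13:119690101-119690350, plus strand: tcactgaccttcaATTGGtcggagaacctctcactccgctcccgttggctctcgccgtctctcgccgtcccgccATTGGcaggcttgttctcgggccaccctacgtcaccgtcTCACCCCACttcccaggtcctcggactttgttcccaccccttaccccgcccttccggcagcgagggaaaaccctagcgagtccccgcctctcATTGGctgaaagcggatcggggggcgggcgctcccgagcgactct

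Of 13 tested genes of sterol export, storage and oxysterol sensing, 8 rose (61.5%, against 30.6% of all tested genes), 1 fell (7.69%, against 30.2%) and 4 did not pass. The gene that fell, Nceh1, was no longer called in 5 of the 6 fits that left out 1 library, all but that without KO-labelled replicate 3, each with 0 genes of the list lower. Abca1, the cholesterol exporter and an LXR target, averaged 5.54 ± 0.831 FPKM in KO-labelled cells, against 0.691 ± 0.0879 FPKM in WT cells (SD, n = 3 each), with a log2 fold change of 1.94 (adjusted p = 7.59e-06). Nr1h3, which encodes LXR-alpha, averaged 10.9 ± 0.829 FPKM in KO-labelled cells, against 4.81 ± 0.4903 FPKM in WT cells (SD, n = 3 each), with a log2 fold change of 1.03 (adjusted p = 4.88e-05). The difference between this list and the synthesis genes was not tested.

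Of 9 genes of SREBP cleavage and turnover, 2 rose, 4 fell and 3 did not pass, a share of calls near the 60.8% of all tested genes. Pgrmc1, a membrane heme-binding protein that interacts with INSIG and SCAP, averaged 11.96 ± 0.5505 FPKM in KO-labelled cells, against 37.3 ± 1.97 FPKM in WT cells (SD, n = 3 each), and its log2 fold change of -1.56 was the largest of this list (adjusted p = 9.94e-07). Erlin2, which takes part in sterol-driven protein turnover, rose by 0.62 on the log2 scale (adjusted p = 5.51e-04). In the isoprenoid list, which uses the product of Fdps, 1 of 8 genes rose (12.5%, against 30.6% of all tested genes), 3 fell (37.5%, against 30.2%) and 4 did not pass. The rise, of Dhdds (adjusted p = 0.0485), was no longer called in 5 of the 6 fits that left out 1 library, all but that without KO-labelled replicate 1, each with 0 genes of the list higher. The log2 fold change was -0.80 for Nus1 of dolichol synthesis (adjusted p = 7.49e-06) and -0.29 for the farnesyltransferase gene Fntb (adjusted p = 0.0169).

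Among 16 tested genes of other fatty acid synthesis, elongation and activation, out of 26 listed, 6 rose (37.5%), 5 fell (31.2%) and 5 did not pass, shares near the 30.6% and 30.2% of all tested genes. Me1, the malic enzyme that supplies NADPH for fatty acid synthesis, averaged 4.33 ± 0.377 FPKM in KO-labelled cells, against 98.9 ± 2.48 FPKM in WT cells (SD, n = 3 each), with a log2 fold change of -4.23 (adjusted p = 1.45e-08). Hacd2, a dehydratase of the elongation cycle, averaged 8.38 ± 0.843 FPKM in KO-labelled cells, against 40.6 ± 0.954 FPKM in WT cells (SD, n = 3 each), with a log2 fold change of -2.15 (adjusted p = 6.17e-07), while its paralog Hacd1 rose by 2.00 on the log2 scale (adjusted p = 1.89e-05). Each of these 3 genes has a near-identical transcript elsewhere in the genome, so their levels are uncertain.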

How the data were processed

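The authors deposited FPKM per Ensembl gene, 1 column per library, for 54532 genes. The submitters' processing notes name the mm10 build, featureCounts 1.5.0-p3 and HISAT2 2.0.5. Not given in the sources used here are the annotation release, the strand setting and how multi-mapped reads were handled, and per the labels' protocols the library kit may or may not have kept strand. Symbols came from GENCODE M21 (mm10) for 54495 genes. FPKM multiplied by exon length stepped in whole fragments within 0.1 for 97.8 to 98.04% of values up to 200 fragments, against 20% by chance, which gave the depth of each library. Libraries were compared and none duplicated another.

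The 10843 genes that averaged 1 FPKM or more entered limma 3.58.1 (R 4.3.3, trend option) as log2(FPKM + 1), KO minus WT, without the replicate number, and Benjamini-Hochberg adjustment over all tested genes. That scale understates changes of weak genes, and folds are ratios of mean FPKM. The step was tested on simulated data with a fixed spread between libraries. It recovered 97.0% of changes of 1.5-fold and of 2-fold and 100% of 4-fold changes, and 6.22% of its calls were false. Changes smaller than 1.5-fold, as many members showed, were not simulated. Near-identical copies were found with BLAST+ 2.17.0+ from the longest and longest coding transcript of each gene, with at least 95% identity, 80% coverage of the shorter transcript and 150 aligned bases.

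The members and gene lists were chosen with earlier results of these data known. Values per library went to the 6 sterol and 5 fatty acid members with the largest changes, all regulators and Stard4, and, chosen after their values were seen, Scd2, Hmgcs1 and Fdps. In each further list the 2 largest changes were named, and Scd3, Scd4, Hacd1, Dhdds, Nceh1 and the markers given with values were added after their values were seen. Proteins were not analysed here.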

Additional observations from a re-analysis of the deposited data

How the results depend on the processing

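Of 22 called members, 18 kept direction and call under all alternatives that gave a value. Of 464 member values under alternatives, 14 lost a call, 11 gained one and 13 changed sign. Sign changes touched uncalled genes only: after rescaling to TPM Idi1 (0.084), Elovl5 (0.092) and Srebf1 (0.065), under quantile normalization Ebp (-0.0068) and Srebf1 (0.0071). Without single replicates the values ran from -0.0092 to 0.087 for Pmvk, -0.029 to 0.019 for Idi1, -0.033 to 0.063 for Ebp, -0.081 to 0.052 for Elovl5 and -0.085 to 0.0078 for Srebf1. Rescaling to TPM gave 9 members higher in all, 3 in the fatty acid branch and 2 regulators, with medians of -0.11 over all members, -0.20 in the sterol branch, -0.37 in the fatty acid branch and 0.065 over the regulators, as that scaling shifts all genes upward. With a mean of at least 5 FPKM, which removes 3 members, the medians were -0.14 over all members, -0.24 in the sterol and -0.37 in the fatty acid branch. Without genes that have near-identical copies, the fatty acid branch, without Scd2, Acaca and Elovl6, had 0 higher and a median of -1.16, and the other fatty acid list had 3 lower. Quantile normalization gave 2 fatty acid genes higher and limma-voom 1 regulator lower. Without single replicates the fatty acid genes called higher numbered 1 to 2, the isoprenoid genes 0 to 1, and the sterol export genes called lower 0 to 1. Dhdds, the isoprenoid gene called higher (adjusted p = 0.0485), was not called under quantile normalization, limma-voom or without a filter, each with 0 higher. Nceh1, the sterol export gene called lower, was not called (0 lower) without a filter, in TPM or with the replicate block. The replicate block gave 16 members lower and 4 higher, with Cyp51 and Stard4 no longer called. Same-numbered replicates did not deviate together (correlations from -0.0339 to 0.0469). The labels do not say whether they share more than a number. Where no reason is given, the cause was not tested. Depth limits Fdps, Tm7sf2 and Acss2, each with fewer than 100 fragments in some library.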

Other observations

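Processed pseudogenes of 2 further members were also counted. Gm37784 on chromosome 3, which is 98.9% identical to Insig1 over 189 bases, was listed at 0 in all 3 KO-labelled libraries and at 5.201, 6.89 and 6.65 FPKM in WT replicates 1 to 3, while Insig1 itself did not pass. Gm13502 on chromosome 2, the copy of Idi1, had 2.49, 2.38 and 2.98 FPKM in KO-labelled replicates 1 to 3, against 1.09, 2.47 and 0.985 FPKM in WT replicates 1 to 3, with overlapping groups (limma adjusted p = 0.0558). Both were singled out after their values had been seen.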
